A study of Mus musculus with 7 samples.

Results

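The genes described here are 40 mouse genes of protein folding in the endoplasmic reticulum (ER) and of the unfolded protein response (UPR), the signalling that follows the folding load of that compartment. They were listed by name, for what their products do, with earlier results of these data known, and were matched to the deposited counts by the gene symbols of the annotation GENCODE vM1. All 40 were in the table of 37310 genes, and all 40 were among the 17175 genes that passed the filter on low counts and were tested. They were placed by role into 17 chaperones and foldases, 6 sensors with their transcription factors, 6 genes of the branch that runs through ATF4 and CHOP, 8 genes of ER-associated degradation and 3 genes of the translocon.

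Secreted proteins enter the ER through the translocon, are folded there by chaperones and by enzymes that form disulfide bonds, and are drawn back to the cytosol for degradation where folding fails. When unfolded proteins build up, the sensors IRE1 (*Ern1*), ATF6 and PERK (*Eif2ak3*) respond: IRE1 splices *Xbp1* mRNA into the form that encodes the active transcription factor, ATF6 is cut to release its own, and PERK phosphorylates the translation factor eIF2, which favours translation of *Atf4*. XBP1 and ATF6 are known to raise chaperone and degradation genes, and ATF4 to raise *Ddit3* (CHOP), *Trib3*, *Chac1* and *Asns*. The secretory cells of the lactating mammary gland carry a large ER and export caseins, whey proteins and lipid droplets.

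The study compared whole mammary glands of C57BL/6 mice at lactation day 1, in 3 libraries labelled WT and 4 labelled *Tardbp* KO, to ask what loss of the RNA-binding protein TDP-43, the product of *Tardbp*, does to the transcriptome. The WT mice were *Tardbp* wt/wt + WAP-Cre and the KO mice *Tardbp* fl/fl + WAP-Cre, so that the transgene was present in both. Its Cre recombinase is driven by the promoter of the whey acidic protein gene and acts in luminal epithelial cells from pregnancy onwards, so the other cells of the gland keep *Tardbp*. The number of mice given by the study, 3 WT and 4 KO, equals the number of libraries.

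Library totals were between 36007737 and 42811337 counts, and the members had between 204 and 72627 counts in a library, so counting error is small beside the difference between libraries. The deletion could not be checked with counts per gene, since they join all exons of *Tardbp*, and its level was 187 ± 32.6 CPM (SD, n = 3, with counts scaled to the TMM-adjusted library size) in WT and 188 ± 28.2 CPM (n = 4) in KO. "KO" below therefore means the libraries labelled so. Milk protein genes took 28.9% ± 4.41 of the counts in WT and 17.1% ± 4.11 in KO. WT replicates 1, 2 and 3 ran on sequencing lanes 3, 4 and 2 and KO replicates 1 to 4 on lanes 1, 5, 4 and 4, and lane 4 was the only one with libraries of both genotypes. Levels are given below in the order of the replicates. Genes of B and T cells were higher in KO, with 12 of 12 markers at an unadjusted p under 0.05 and a summed level of 42.4 to 58.6 CPM in WT against 479, 71.6, 650 and 144 CPM in KO replicates 1 to 4. Of 10 luminal markers (the keratins *Krt8* and *Krt18*, *Epcam* and others), all were detected in every library, with a summed level of 3385 to 4386 CPM in WT and 3640 to 5354 CPM in KO. After TMM scaling, 8 of these 10 markers were higher in KO and 2 were lower, and the middle of their log2 changes was 0.38. At an unadjusted p under 0.05 in edgeR's quasi-likelihood test, 3 were higher and 1 was lower. The lower one was *Elf5*, a factor of the secretory lineage, at a log2 fold change of -0.59 ± 0.25 and without overlap. *Cdh1* at 0.77 ± 0.17 and *Krt8* at 0.55 ± 0.20 were higher without overlap.

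The 40 genes did not move as a block. Chaperones, degradation genes and translocon genes were lower in KO throughout after TMM scaling (28 of 28, with medians of -1.05, -0.63 and -1.14 on the log2 scale of KO over WT), while with library size only *Dnajb9*, *Derl1*, *Derl2* and *Herpud1* lay above 0, at 0.02 to 0.09. In contrast, 5 of the 6 genes of the ATF4 and CHOP branch were higher, with a median of 0.54, and the 6 sensors and factors lay on both sides of no change, with a median of -0.38. The median over all genes tested was 0.05, and scaling by library size only raised it to 0.42. In all, 33 members were lower and 7 higher. The limits of the study were an adjusted p under 0.01 from edgeR, whose test it does not name, and an absolute log2 fold change above 1. The study itself reported differentially expressed genes. With edgeR's quasi-likelihood test, chosen here, none of the members passed these limits, as did 0% of all genes tested. The adjusted p of the members lay between 0.0692 and 0.798. At an unadjusted p under 0.05 in that test, 26 members were lower against 10.7% of all genes, and 3 were higher, also against 10.7%. With library size only these counts were 17 and 5, among 523 lower and 5286 higher genes in all. The 3 higher members became 1, 5, 0 and 1 without WT replicate 1, WT replicate 2, WT replicate 3 or KO replicate 1, and 0 without KO replicates 1 and 3 together. The KO libraries lay below every WT library for 19 members (9.62% of all genes), or for 8 with library size only. They lay above every WT library for 2 (9.07%), or for 4 with library size only and 5 without WT replicate 2. For overlap under these alternatives, and for the counts with libraries left out, no share over all genes was counted. With edgeR's exact test and the same limits, 8 members were called lower (1.44% of all genes) and 0 higher (1.04%), and DESeq2 called 9 lower (1.64%) and 0 higher (1.69%).

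Lane 4 alone held WT replicate 2 and KO replicates 3 and 4. Within it the medians were -0.34 for chaperones, -0.25 for sensors and factors, -0.27 for degradation genes, -0.55 for translocon genes and -0.33 for the ATF4 and CHOP branch, with 0.01 over all genes. The lower levels of the first 4 groups thus had the same direction at a smaller size, and that of the ATF4 and CHOP branch turned. With lane as a covariate, far fewer members reached an unadjusted p under 0.05 than without it. The same held for all genes tested, as these 3 libraries alone carry the difference. WT replicate 2 was the lowest WT library for 16 of 17 chaperones and the highest for 5 of 6 genes of the ATF4 and CHOP branch, so a comparison with this library alone gives the smallest difference for both groups. With only 1 WT library on that lane, lane and library cannot be told apart.

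**Figure D1:**
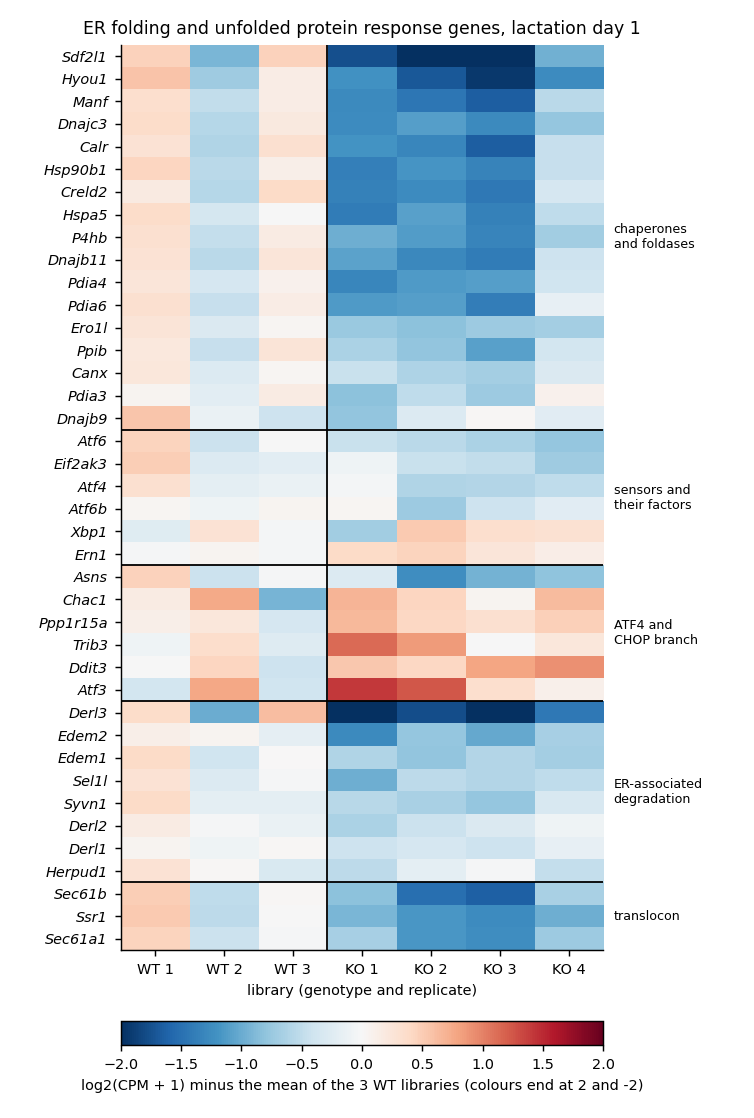
Level of each of the 40 genes (rows, by role) in each library (columns) as log2(CPM + 1) minus the mean of the 3 WT libraries, with blue lower and red higher and the colours ending at 2 in either direction. For the chaperones, KO replicate 4 was the highest KO library in 15 of 17 genes and WT replicate 2 the lowest WT library in 16, while in the ATF4 and CHOP branch *Asns* is blue in KO and the other genes are red or near the WT mean.

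Since XBP1, ATF6 and ATF4 act through short promoter elements, the RefSeq promoter windows of the members were searched on both strands for exact matches. The windows (assembly GRCm38.p6) ran from 250 bases before the gene start to 50 after it, and 35 of 40 members had one. The ER stress response element ERSE was CCAAT, 9 bases of any kind and CCACG. Its shorter form ERSE-II was ATTGG, 1 base of any kind and CCACG. The UPR element UPRE was TGACGTGG, and the C/EBP-ATF composite element CARE was TGATGNAA. *Hyou1*, *Manf*, *Atf6*, *Derl1* and *Sec61a1* had no window. ERSE matched in 9 of 35 members, against 0.137% of the 27025 genes of the table, and 7 of these 9 were chaperones. ERSE-II matched in 2 members, *Dnajb11* and *Herpud1* (0.0444% of all genes), and UPRE in 0 of 35 (0.714%). CARE matched in 5 members (4.51% of all genes), of which 4 belonged to the 6 genes of the ATF4 and CHOP branch. The members were listed for their part in the response that these elements serve. Higher shares of ERSE, ERSE-II and CARE among them are therefore no independent result. ERSE and ERSE-II share the letters CCACG, and no matches in the members overlapped. The bases before the start of *Hspa5*, the gene of the main ER chaperone, and of *Derl3*, the member with the largest difference, are printed in full. They read 5′ to 3′ on the gene's strand, with the exact ERSE match in capitals. Copies with other letters were not searched for.
*Hspa5*, chr2:34771840-34772089, plus strand: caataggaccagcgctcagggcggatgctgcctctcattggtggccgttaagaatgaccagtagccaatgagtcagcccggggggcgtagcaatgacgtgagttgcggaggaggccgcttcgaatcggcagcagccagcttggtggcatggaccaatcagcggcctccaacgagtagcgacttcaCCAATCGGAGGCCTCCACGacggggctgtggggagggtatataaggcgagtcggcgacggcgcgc
*Derl3*, chr10:75893148-75893397, plus strand: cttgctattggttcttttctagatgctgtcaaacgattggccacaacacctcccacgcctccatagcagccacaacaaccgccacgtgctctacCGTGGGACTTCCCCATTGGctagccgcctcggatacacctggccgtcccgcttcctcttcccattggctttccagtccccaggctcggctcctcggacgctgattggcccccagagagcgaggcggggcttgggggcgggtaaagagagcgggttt

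The other ERSE matches are shown with 10 bases on each side, since they let the spacing and the direction of the element be compared between chaperones. Capitals mark the element, which lies on the opposite strand in *Calr*, *Creld2*, *Derl3* and the second site of *Hsp90b1*.
*Hsp90b1*, first site, chr10:86705628-86705666, minus strand: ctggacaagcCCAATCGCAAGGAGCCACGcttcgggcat
*Hsp90b1*, second site, chr10:86705523-86705561, minus strand: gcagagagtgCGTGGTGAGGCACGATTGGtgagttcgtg
*Calr*, chr8:84847065-84847103, minus strand: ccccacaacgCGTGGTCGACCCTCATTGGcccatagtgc
*Canx*, chr11:50325790-50325828, minus strand: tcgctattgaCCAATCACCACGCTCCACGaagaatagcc
*Pdia6*, chr12:17266481-17266519, plus strand: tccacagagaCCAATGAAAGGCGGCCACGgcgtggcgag
*Dnajc3*, chr14:118937817-118937855, plus strand: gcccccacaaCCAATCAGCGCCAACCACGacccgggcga
*Creld2*, chr15:88819510-88819548, plus strand: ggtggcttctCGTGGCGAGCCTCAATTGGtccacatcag
*Syvn1*, chr19:6046522-6046560, plus strand: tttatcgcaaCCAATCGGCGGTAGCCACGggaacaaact

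The 9 members with an ERSE were all lower in KO at an unadjusted p under 0.05 in edgeR's quasi-likelihood test, with log2 fold changes of -2.20 to -0.52 and a median of -1.09. The 8 chaperones with a window and no exact ERSE match were lower too. Their median was -0.87, against -1.09 for the 7 with a match, and this difference was not tested. Since all 17 chaperones were lower, the element could not separate lower chaperones from others. *Dnajb11*, among the 8, held an ERSE-II. *Sdf2l1*, which had the largest difference of the chaperones, had no match in its window. The CARE matches of the ATF4 and CHOP branch lay before the start in *Atf3*, *Chac1* and *Asns* and 15 bases into the transcript in *Trib3*, and those before the start read as follows, with the element in capitals.
*Atf3*, chr1:191183426-191183453, minus strand: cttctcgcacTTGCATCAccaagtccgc
*Chac1*, chr2:119351039-119351066, plus strand: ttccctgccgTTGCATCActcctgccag
*Asns*, chr6:7693215-7693242, minus strand: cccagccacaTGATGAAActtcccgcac

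Genes with a CARE lay on both sides, with *Atf3*, *Trib3* and *Chac1* higher in KO and *Asns* and *Herpud1* lower, and only *Asns* had an unadjusted p under 0.05. *Herpud1* held a CARE and an ERSE-II. A match is a string of letters in the window and says nothing of whether a factor was bound there.

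**Figure D2:**
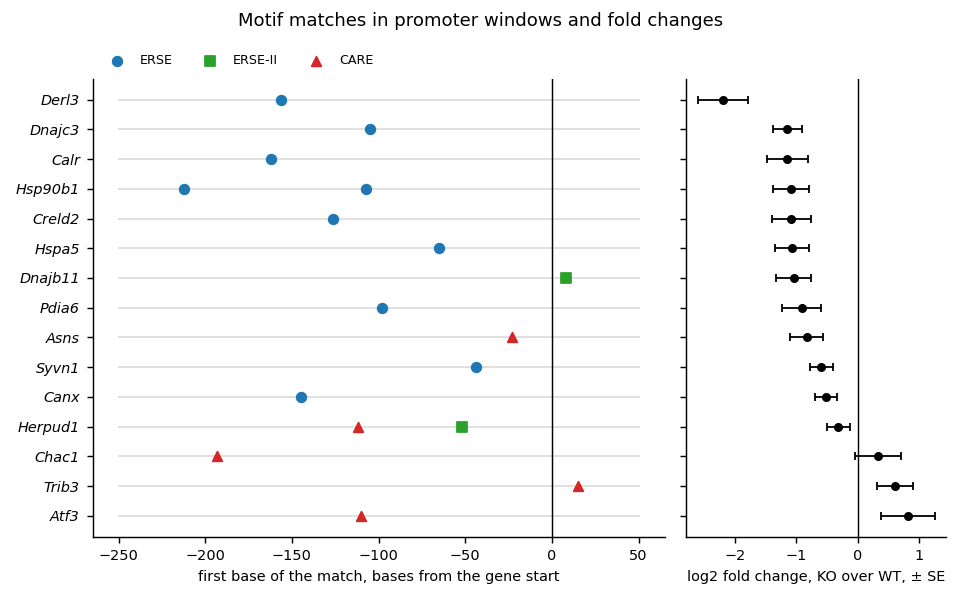
Left, first base of each ERSE, ERSE-II and CARE match in bases from the gene start for the 15 members with a match, and right, log2 fold change of KO over WT with its standard error. The members with an ERSE (circles) all lie below 0, between -2.20 and -0.52, and the 5 with a CARE (triangles) lie on both sides of it.

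Chaperones and foldases were lower in KO in 17 of 17 genes after TMM scaling (16 of 17 with library size only, where *Dnajb9* was at 0.06), and 15 of them had an unadjusted p under 0.05 in edgeR's quasi-likelihood test. Their summed level was 8822, 5114 and 7857 CPM in WT and 3211, 3292, 2848 and 5096 CPM in KO, which puts the KO mean at 49.7% of the WT mean. On the same TMM scale, the sum over all genes tested had a KO mean at 77.3% of the WT mean. In the chaperone sum, WT replicate 2 and KO replicate 4 met in the middle, at 5114 and 5096 CPM. The other 2 WT libraries were far above the other 3 KO libraries. Since the RNA came from whole glands, fewer secretory cells and less of these mRNAs in each cell cannot be told apart.

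*Hspa5* encodes BiP, the HSP70 chaperone of the ER that also holds the sensors inactive, and lies at chr2:34627490-34632051 in NCBIM37, the assembly of the counts. It was counted at 1648, 993 and 1262 CPM in WT and at 480, 600, 498 and 899 CPM in KO. The highest KO library stayed below the lowest WT library, and the log2 fold change was -1.07 ± 0.28 (SE), with an adjusted p of 0.0949 by edgeR's quasi-likelihood test. *Hsp90b1*, the gene of GRP94, the HSP90 of the ER, had 704, 360 and 565 CPM in WT and 201, 232, 207 and 378 CPM in KO, so that KO replicate 4 passed WT replicate 2, and 15.7% of its exon bases are shared with other annotated genes. *Hyou1*, a large HSP70-like protein that exchanges the nucleotide of BiP, had 389, 160 and 290 CPM in WT and 113, 80.1, 67.8 and 110 CPM in KO, without overlap. Its log2 fold change of -1.59 ± 0.30 came with an adjusted p of 0.0692, the lowest among the members and shared with *Derl3* and *Edem2*.

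The co-chaperones of BiP were lower to different degrees. *Sdf2l1*, which works beside the J protein ERdj3, had 185, 71.4 and 185 CPM in WT and 39.3, 30.5, 22.1 and 69.2 CPM in KO, a KO mean at 27.3% of the WT mean. WT replicate 2 and KO replicate 4 nearly touched there, at 71.4 and 69.2 CPM. *Dnajb11*, the gene of ERdj3 itself, had 212, 119 and 203 CPM in WT and 81.5, 69.9, 64.9 and 128 CPM in KO, where KO replicate 4 passed WT replicate 2. *Dnajc3*, a J protein that also inhibits eIF2 kinases, had 409, 213 and 362 CPM in WT and 131, 148, 130 and 184 CPM in KO, with no overlap. *Dnajb9*, the gene of ERdj4, differed least in this set, at 104.9, 64.2 and 52.6 CPM in WT and 40.7, 58.2, 71.9 and 60.3 CPM in KO: its genotypes overlapped, its log2 fold change was -0.35 ± 0.26 and its adjusted p 0.482 by edgeR's quasi-likelihood test.

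Calnexin and calreticulin hold glycoproteins during folding. *Calr* was the member with the highest level per kb of exon in WT, at 436 CPM per kb, and had 1467, 792 and 1505 CPM in WT and 527, 488, 383 and 871 CPM in KO. The KO mean was 45.2% of the WT mean, and KO replicate 4 passed WT replicate 2. *Canx*, the membrane-bound relative, differed less, at 334, 235 and 292 CPM in WT and 208, 184, 178 and 231 CPM in KO, but its genotypes did not overlap. *Pdia3*, the disulfide isomerase that works with both, had a log2 fold change of -0.45 ± 0.24, with an adjusted p of 0.324 and with KO replicate 4 at 549 CPM against 444 to 574 CPM in WT.

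Enzymes of disulfide bonds followed. *P4hb* encodes protein disulfide isomerase and had the next highest level per kb in WT (404 CPM per kb), with 1403, 809 and 1255 CPM in WT against 569, 518, 451 and 694 CPM in KO. *Pdia4* had 233, 156 and 209 CPM in WT and 79.1, 88.9, 91.5 and 150 CPM in KO, and like *P4hb* showed no overlap. *Pdia6* had 550, 317 and 484 CPM in WT and 199, 203, 167 and 391 CPM in KO, where KO replicate 4 passed WT replicate 2. *Ero1l*, the oxidase that refills these isomerases, was the most even of the group in KO, at 32.3, 30.4, 32.5 and 33.4 CPM against 65.2, 44.2 and 55.8 CPM in WT, and its log2 fold change of -0.78 ± 0.15 had an adjusted p of 0.0712 by edgeR's quasi-likelihood test. *Ppib*, the proline isomerase cyclophilin B, had 119, 74.7 and 123 CPM in WT and 66.2, 59.2, 48.2 and 79.7 CPM in KO, but 54.2% of its exon bases lie opposite exons of *Snx22*, and a read that covers both genes was left out of the counts.

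*Manf* and *Creld2* encode small secreted ER stress proteins. *Manf* had 348, 195 and 307 CPM in WT and 113, 100.3, 86.9 and 189 CPM in KO, without overlap, and a log2 fold change of -1.21 ± 0.30. *Creld2* had 114, 67.1 and 132 CPM in WT and 38.8, 41.4, 36.6 and 79.6 CPM in KO, a log2 fold change of -1.09 ± 0.32, with KO replicate 4 above WT replicate 2. Over the 17 chaperones, KO replicate 4 was the highest KO library for 15. KO replicate 3, with the most B and T cell RNA, was the lowest for 11, and KO replicate 1, with the next most, for 5. KO replicate 2, with the least, was the lowest for 1 and the highest for 0. The part of lymphocyte RNA in this order was not tested. Without KO replicates 1 and 3, the libraries with the most lymphocyte RNA, the median of the chaperones was -0.79 and 19 of the 40 members were lower at an unadjusted p under 0.05.

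**Figure D3:**
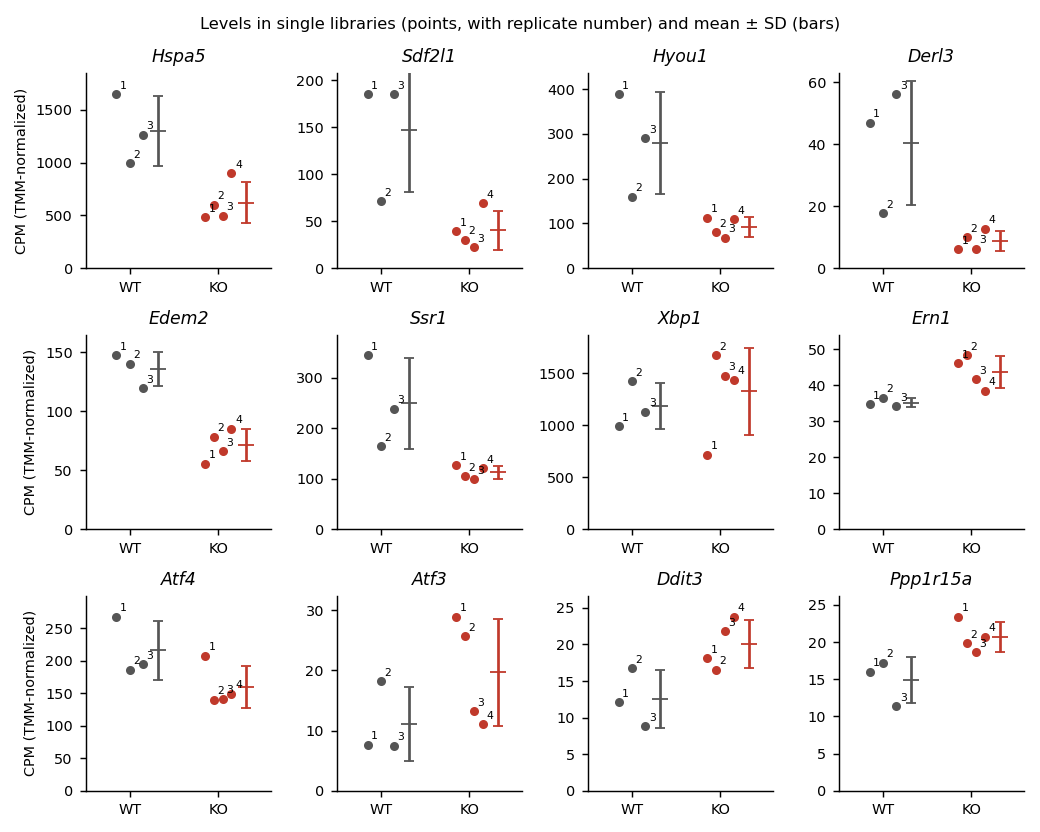
CPM after TMM scaling in each library (points, with replicate number) and mean ± SD (bars, n = 3 WT and n = 4 KO) for 12 of the genes, each axis from 0. *Hspa5*, *Sdf2l1*, *Hyou1*, *Derl3*, *Edem2* and *Ssr1* have all KO points below all WT points, *Ern1* and *Ppp1r15a* have all KO points above, and *Xbp1*, *Atf4*, *Atf3* and *Ddit3* overlap.

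Genes of ER-associated degradation were lower in 8 of 8 cases after TMM scaling (5 of 8 with library size only, where *Derl1*, *Derl2* and *Herpud1* lay at 0.04, 0.02 and 0.09), 6 of them with an unadjusted p under 0.05 and without overlap of the genotypes. With library size only, 2 were lower at an unadjusted p under 0.05, as were 523 of all 17175 genes tested. Within lane 4 the median of the 8 genes was -0.27. *Derl3* (chr10:75356143-75358686 in NCBIM37), a derlin of the channel through which misfolded proteins leave the ER, known for secretory cells, had the largest difference of the 40 genes. It was counted at 46.9, 17.7 and 56.1 CPM in WT and at 6.05, 9.92, 6.33 and 12.8 CPM in KO, without overlap. The KO mean was 21.8% of the WT mean, the log2 fold change -2.20 ± 0.40 and the adjusted p 0.0692 by edgeR's quasi-likelihood test. Per kb of exon, *Derl3* went from rank 25 of the 40 members in WT to rank 38 in KO. It was the 1 member of the group that edgeR's exact test called with the study's limits.

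Its relatives *Derl1* and *Derl2* differed far less. *Derl1* had 142, 128 and 138 CPM in WT and 102, 108, 101 and 121 CPM in KO, with a log2 fold change of -0.33 ± 0.13 and no overlap. *Derl2* overlapped, with -0.36 ± 0.16. All 3 genes encode derlins of the same membrane complex, and their fold changes were fitted separately, with no test of one against another.

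The mannosidase-like proteins EDEM1 and EDEM2 pick glycoproteins for degradation. *Edem2* had 147, 140 and 119.7 CPM in WT and 55.6, 78.7, 66.2 and 85.3 CPM in KO, and an adjusted p of 0.0692 by edgeR's quasi-likelihood test. *Edem1* had 192, 111 and 148 CPM in WT and 95.9, 84.6, 96.8 and 91.3 CPM in KO. Neither gene overlapped between genotypes. *Syvn1*, the ubiquitin ligase HRD1, had 169, 113 and 113 CPM in WT and 88.0, 82.3, 75.2 and 104 CPM in KO, and its partner *Sel1l* had 193, 131 and 156 CPM in WT and 79.5, 109.5, 105 and 111 CPM in KO. *Herpud1*, an adaptor of that ligase, had a log2 fold change of -0.31 ± 0.19 with overlap, and was the degradation gene with the smallest difference.

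In the translocon, all 3 genes were lower without overlap, and the unadjusted p was under 0.05 for each. *Sec61a1*, the pore itself, had 670, 368 and 487 CPM in WT and 309.8, 220.2, 207 and 299 CPM in KO. *Sec61b*, a small subunit of the pore, had 275, 137 and 198 CPM in WT and 110.4, 68.4, 62.0 and 125 CPM in KO. *Ssr1*, a subunit of the translocon-associated complex, had 345, 165 and 239 CPM in WT and 127, 106, 99.0 and 121 CPM in KO. Log2 fold changes were -0.97 ± 0.24, -1.15 ± 0.31 and -1.14 ± 0.24, in that order. KO replicate 4 did not stand above the other KO libraries here as it did for the chaperones: it was the highest for 1 of 3 genes, and KO replicate 1 for 2.

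The sensors and their factors did not share a direction. *Ern1*, the gene of IRE1, was the member with the lowest level per kb, at 4.31 CPM per kb in WT, and had 34.8, 36.6 and 34.3 CPM in WT and 46.1, 48.3, 41.7 and 38.5 CPM in KO. The KO libraries were all above the WT libraries, with a log2 fold change of 0.31 ± 0.13 and an adjusted p of 0.212 by edgeR's quasi-likelihood test. *Atf6* lay on the other side, at 99.7, 53.6 and 72.4 CPM in WT and 53.4, 49.6, 46.8 and 42.1 CPM in KO, with WT replicate 2 only just above KO replicate 1, and had a log2 fold change of -0.65 ± 0.20. *Atf6b*, its close relative, had 90.4, 82.6 and 91.9 CPM in WT and 90.7, 52.8, 65.9 and 75.1 CPM in KO. With library size only *Atf6b* turned from -0.31 to 0.05. *Eif2ak3*, the gene of PERK, had 88.3, 51.5 and 53.9 CPM in WT and 58.7, 45.6, 44.1 and 37.9 CPM in KO, with overlap and a log2 fold change of -0.47 ± 0.22.

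*Xbp1* (chr11:5420662-5425896 in NCBIM37) did not go with the chaperones it controls. It had 990, 1423 and 1131 CPM in WT and 717, 1671, 1475 and 1437 CPM in KO. KO replicate 1 was the lowest of all 7 libraries and the other 3 KO libraries were above every WT library. The log2 fold change was 0.17 ± 0.30 and the adjusted p 0.798, the highest among the members. Per kb of exon it was the 4th member in WT, at 364 CPM per kb, and the highest in KO, at 408 CPM per kb, where *Calr*, *P4hb* and *Hspa5* had 197, 195 and 176 CPM per kb. Counts per gene join the spliced and unspliced forms of *Xbp1* mRNA, so that the activity of IRE1 cannot be read from them. Markers of plasma cells, which use *Xbp1* heavily, were higher in KO for 6 of 8 genes at an unadjusted p under 0.05, with a summed level of 66.8 to 71.9 CPM in WT and 157, 143, 193 and 94.2 CPM in KO replicates 1 to 4, and the receptor gene *Tnfrsf17* was at 0 in 1 library. Their part in the level of *Xbp1* was not tested.

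*Atf4* had 268, 186 and 194 CPM in WT and 207, 140, 142 and 149 CPM in KO. KO replicate 1 stood apart from the other 3, which were lower than every WT library. The log2 fold change of -0.44 ± 0.20 had an adjusted p of 0.254 by edgeR's quasi-likelihood test. Since ATF4 is controlled mainly at translation, its mRNA level is not a measure of the protein.

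Of the genes below ATF4, 5 of 6 were higher in KO. *Ddit3*, the gene of the death-linked factor CHOP, had 12.1, 16.7 and 8.83 CPM in WT and 18.1, 16.5, 21.8 and 23.8 CPM in KO, where only WT replicate 2 reached into the KO range. Its log2 fold change was 0.68 ± 0.24 and its adjusted p 0.158 by edgeR's quasi-likelihood test. *Ppp1r15a*, the gene of GADD34, which returns eIF2 to its unphosphorylated state, had 16.02, 17.2 and 11.4 CPM in WT and 23.4, 19.8, 18.6 and 20.7 CPM in KO, without overlap, at 0.47 ± 0.18. These 2 genes and *Ern1* were the 3 members that were higher at an unadjusted p under 0.05.

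*Atf3*, a factor induced by many stresses, had 7.67, 18.2 and 7.49 CPM in WT and 28.9, 25.7, 13.2 and 11.0 CPM in KO. *Trib3*, a pseudokinase that holds back AKT and ATF4, had 20.7, 28.6 and 18.3 CPM in WT and 49.6, 40.6, 22.0 and 26.0 CPM in KO. Both were highest in KO replicates 1 and 2, with KO replicates 3 and 4 inside the WT range, whereas *Ddit3* was highest in KO replicates 3 and 4. Their adjusted p were 0.318 and 0.273. *Chac1*, which breaks down glutathione, had a log2 fold change of 0.34 ± 0.37 and overlapped widely. It turned to -0.0237 without WT replicate 3 and to -0.41 with lane as a covariate, and *Atf3* and *Trib3* also turned with lane, to -0.59 and -0.25.

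*Asns*, the asparagine synthetase gene and a standard target of ATF4, was the 1 gene of the branch that was lower. It had 136, 72.5 and 96.6 CPM in WT and 81.5, 41.1, 50.6 and 56.1 CPM in KO, with KO replicate 1 above WT replicate 2 and a log2 fold change of -0.83 ± 0.27 (adjusted p 0.139 by edgeR's quasi-likelihood test). Library by library, the median of the 6 genes against the WT mean was 0.06, 0.39 and -0.37 in WT and 0.66, 0.42, 0.19 and 0.35 in KO on the log2(CPM + 1) scale, so that WT replicate 2 lay among the KO libraries. Without WT replicate 2 the median of the branch was 0.82 in place of 0.54.

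**Figure D4:**
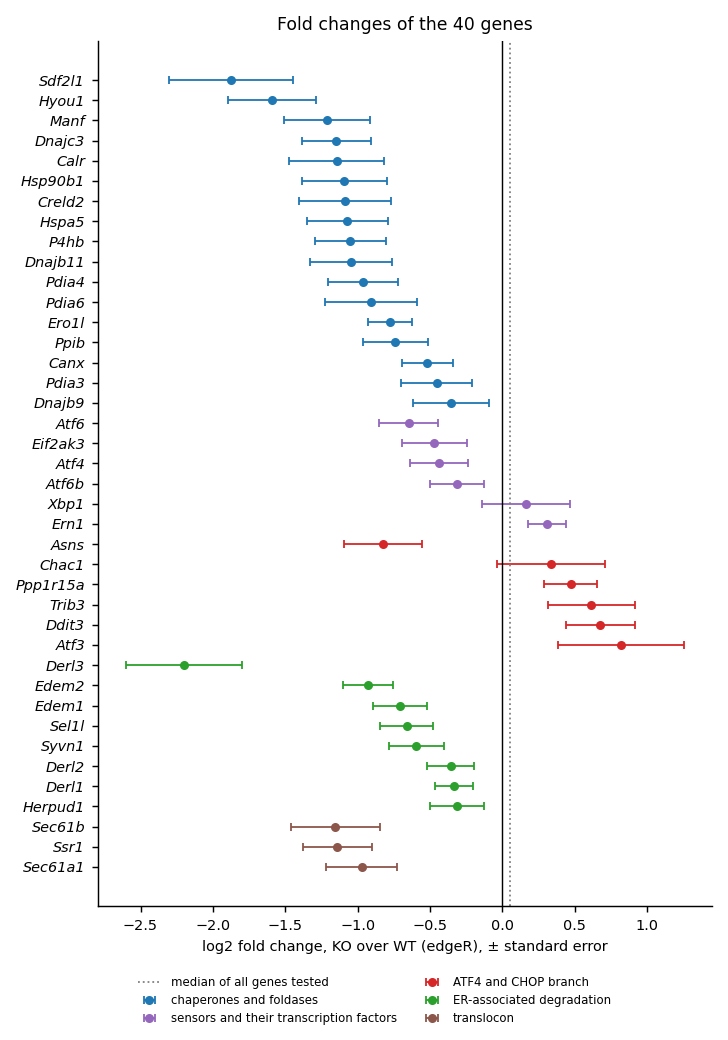
Log2 fold change of KO over WT with its standard error from edgeR for the 40 genes, grouped by role, with a dotted line at the median of all genes tested (0.05). Chaperones, degradation and translocon genes lie left of 0 after TMM scaling, from *Derl3* at -2.20 to *Herpud1* at -0.31 (with library size only, *Dnajb9*, *Derl1*, *Derl2* and *Herpud1* lie right of it), and 5 genes of the ATF4 and CHOP branch lie right of it.

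Other genes of the same machinery, from lists that hold no member, were set beside them. Of 37 other ER folding enzymes tested, 17 were lower and 1 was higher at an unadjusted p under 0.05, with a median of -0.41. *Serp1*, a stress-linked protein of the translocon, had 1420 CPM in WT replicate 1 and 236 CPM in KO replicate 2 as its ends and a log2 fold change of -1.59 ± 0.35, and *Ero1lb*, the relative of *Ero1l*, had -1.09 ± 0.22. Of 22 genes of glycosylation and glycan quality control, 15 were lower and 0 higher (median -0.52), led by the cargo receptor pair *Lman1* at -1.42 ± 0.27 and *Mcfd2* at -1.21 ± 0.24. Of 21 other genes of the translocon, signal peptidase and signal recognition particle, 14 were lower and 0 higher (median -0.61), among them the signal peptidase genes *Sec11c* at -1.29 ± 0.26 and *Spcs3* at -1.13 ± 0.23. Of 19 genes of the COPII coat, which buds vesicles from the ER, 15 were lower and 1 higher (median -0.55), and *Sec23b* had the lowest p at -1.49 ± 0.27.

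Of 22 chaperones of the cytosol and mitochondria, 4 were lower and 0 higher at an unadjusted p under 0.05, with a median of -0.11, and these were *Hspa9*, *Hspd1*, *Hsph1* and *Hspe1*, at -0.68 to -0.55, of which *Hsph1* alone is cytosolic. Of 21 other degradation genes, 9 were lower and 1 higher (median -0.25): *Edem3*, the relative of *Edem1* and *Edem2*, had -0.92 ± 0.20, while *Herpud2* was higher at 0.47 ± 0.12. Of 23 other regulators of the UPR, 7 were lower and 1 higher (median -0.05), with the eIF2 kinase gene *Eif2ak2* at -0.72 ± 0.17. The difference between these lists and the members was not tested, and the counts of these lists depended on the scaling. With library size only, 523 of all 17175 genes tested were lower and 5286 higher at an unadjusted p under 0.05. At that scaling, 7 lower and 6 higher genes were left among the other ER folding enzymes, and 5 and 2 in glycosylation. The translocon list had 8 and 0, COPII 4 and 1, and degradation 2 and 6. The other regulators had 0 and 10, and the chaperones of cytosol and mitochondria 0 and 2. Within lane 4 the medians of these lists were -0.21, -0.25, -0.34, -0.30, -0.11, 0.04 and -0.04, in that order.

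Targets of the integrated stress response outside the 6 members of the branch did not share its direction. Of 42 genes tested, 18 were lower and 1 was higher at an unadjusted p under 0.05, with a median of -0.42. With library size only, 7 were lower and 7 higher, against 523 lower and 5286 higher of all 17175 genes tested. The median of the list was then -0.05, against 0.42 over all genes. *Stc2*, a secreted glycoprotein, and *Aldh18a1*, an enzyme of proline synthesis, had -1.48 ± 0.26 and -1.52 ± 0.34, and *Gpt2*, an alanine transaminase, -1.14 ± 0.25. These sit with *Asns*. *Gdf15*, a stress-induced hormone, was the 1 gene that was higher, at 0.376, 0.506 and 0.119 CPM in WT and 1.43, 1.75, 1.31 and 1.41 CPM in KO, a log2 fold change of 2.14 ± 0.48 at a low level.

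Immediate early genes, which respond within minutes to stress and to tissue handling, were higher in KO for 7 of 15 and lower for 0 at an unadjusted p under 0.05 (median 0.74, and 0.31 within lane 4). *Junb* had 26.8, 64.8 and 47.7 CPM in WT and 202, 103, 93.0 and 154 CPM in KO, and *Fos* 20.6, 34.5 and 22.8 CPM in WT and 46.7, 69.0, 44.9 and 112 CPM in KO. Their part in the higher levels of *Atf3*, *Ddit3* and *Ppp1r15a* was not tested. The milk proteins, the main load of the secretory route in this tissue, were lower without overlap for 7 of 7 genes (median -1.10). The study, by qRT-PCR, reported no effect of *Tardbp* loss on several milk protein genes, at lactation day 1 among other stages. It also reported no difference in the protein make-up of milk. KO replicate 3, with the lowest share of milk protein counts at 12.7%, had the lowest chaperone sum, and KO replicates 2 and 4 followed in the same order of both, at 14.8% and 19.3%. KO replicate 1 had the highest share in KO at 21.8% and the second lowest chaperone sum. In WT the order was the same for both, with shares of 34.0%, 26.4% and 26.3% and chaperone sums of 8822, 7857 and 5114 CPM in replicates 1, 3 and 2. The part of one in the other was not tested.

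**Figure D5:**
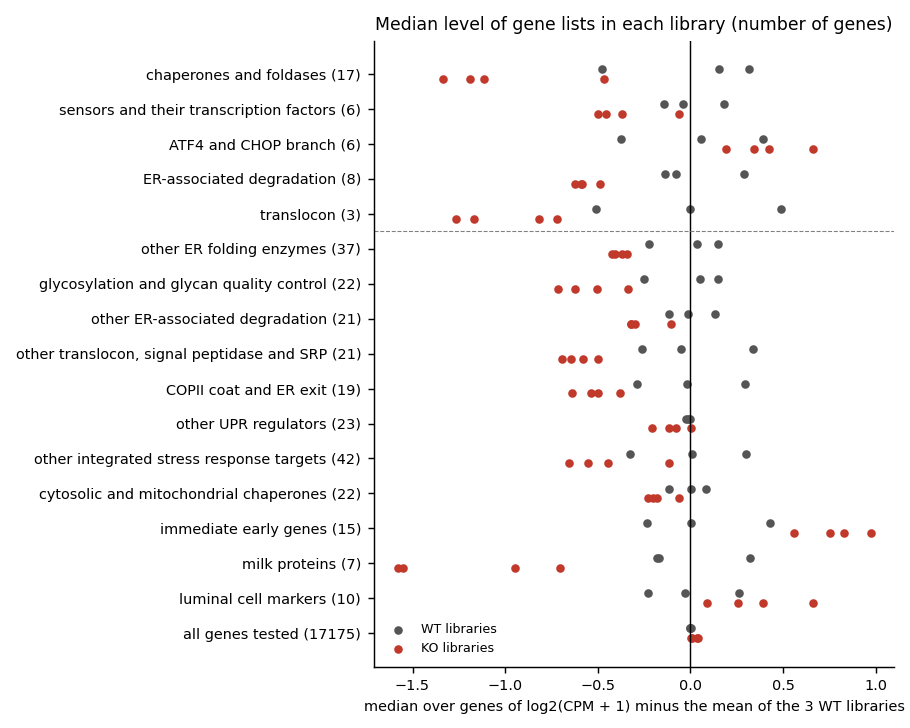
Median over the genes of each list of log2(CPM + 1) minus the mean of the 3 WT libraries, 1 point per library, with the number of genes in brackets, and with the 5 groups of members above the dashed line. KO libraries lie left of the WT libraries for both translocon lists, for the degradation members, glycosylation and COPII, overlap with them for the other degradation genes, KO replicate 4 and WT replicate 2 meet for the chaperones (-0.47 and -0.48), and the immediate early genes lie right of them.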

How the data were processed

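RNA of whole mammary glands was measured in 3 WT and 4 *Tardbp* KO libraries at lactation day 1. The authors prepared TruSeq libraries, mapped paired-end reads with STAR (version 2.5.2a in the submitters' processing notes, while the methods of the study name another) to NCBIM37 (mm9) and counted reads on exons with featureCounts. What was deposited is a table of raw counts per gene, with no normalization and no gene removed. The counting command set no option for strand, pairs or multimapping reads, so both strands were counted, mates counted separately, and reads over several genes or places were left out. It names 1 more library, not analysed here.

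Mitochondrial (37) and ribosomal (580) genes were left out, as was any gene that did not reach 5 counts in 4 libraries, which kept 17175. Genotypes were compared with edgeR 4.0.16 (R 4.3.3), with TMM scaling and the quasi-likelihood test, p adjusted by Benjamini-Hochberg over all genes tested. Limits and filters follow the methods of the study, which name edgeR but not its test. The common dispersion was 0.0921. Standard errors are the log2 fold change over the root of its quasi F. Levels are TMM-scaled CPM, with SD over libraries. Levels per kb divide by the exon bases of GENCODE vM1. List medians by library use log2(CPM + 1). For single members an exact 2-sided permutation test was run on log2(CPM + 1), whose 35 splits allow a smallest p of 0.0286, which 13 members reached. The code was run on simulated data with known fold changes and the same dispersion for all genes. That does not measure how the test performs on these data.

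The members and all lists were chosen with earlier results of these data known. All 40 members are named, with levels in every library for those with an unadjusted p under 0.05 or without overlap, for sensors and factors, and for the 3 highest per kb. From each other list, up to 4 genes with the lowest unadjusted p under 0.05 could be named. Alternatives were other normalizations (DESeq2 size factors, upper quartile, library size only, milk protein genes left out), other filters, edgeR's exact test, DESeq2 1.42.0, a looser threshold, a replicate block, lane as a covariate and libraries left out. Promoters and gene starts came from RefSeq tables of GRCm38.p6, in which *Ero1l* is listed as *Ero1a*, and their coordinates are not those of the counts.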

Additional observations from a re-analysis of the deposited data

Results flagged for a closer look

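Over the 40 members and the medians of their 5 groups, 45 sets of 4 KO libraries were looked at, and in 4 of them 1 library lay far from the other 3, as judged by its gap to the nearest other library divided by the range of the group against Dixon's 95% critical value. Chance alone gives this in about 1 of 20 groups. *Hsp90b1* at 378 CPM, *Pdia6* at 391 CPM and *Creld2* at 79.6 CPM were high in KO replicate 4, the library that was the highest KO library for 15 of 17 chaperones. *Atf4* at 207 CPM was high in KO replicate 1, the highest KO library for 5 of 6 genes of the ATF4 and CHOP branch.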

How the results depend on the processing

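Of 760 values (40 members under 19 alternatives), 733 kept their direction and their side of the limit, 17 passed it under edgeR's exact test or DESeq2, and 10 turned, while 32 members never turned. The number of genes called was 0 by the quasi-likelihood test (3674 at an unadjusted p under 0.05), 426 by edgeR's exact test, 572 by DESeq2, 1 without a filter and 1 at an adjusted p under 0.05 with no fold limit, and the number of members called was 8 by the exact test and 9 by DESeq2. With library size only, which raised the median of all genes to 0.42, the medians were 0.91 for the ATF4 and CHOP branch, -0.24 for degradation, -1.27e-05 for sensors and -0.75 for the translocon, 17 members were lower and 5 higher at an unadjusted p under 0.05, 8 lay below and 4 above without overlap, and *Atf6b* (0.0523), *Derl1* (0.0361), *Derl2* (0.0166), *Dnajb9* (0.0552) and *Herpud1* (0.0856) turned. With lane as a covariate, which leaves the difference within lane 4, the medians were -0.33 for the ATF4 and CHOP branch, -0.34 for chaperones, -0.27 for degradation and -0.55 for the translocon. *Atf3* (-0.59), *Chac1* (-0.41), *Trib3* (-0.25) and *Dnajb9* (0.0417) turned. That fit rests on 3 libraries for the difference. Far fewer members, and far fewer of all genes, reached an unadjusted p under 0.05 than without lane. Leaving out 1 library at a time gave degradation medians of -0.74 to -0.43 (-0.43 without WT replicate 1), 2 to 5 members above without overlap (5 without WT replicate 2) and 0 to 5 members higher at an unadjusted p under 0.05. *Chac1* turned without WT replicate 3 (-0.0237, against up to 0.81 without WT replicate 2). Without KO replicates 1 and 3 no member was higher at an unadjusted p under 0.05 (0 of 40). The causes were not tested. Replicate numbers do not pair the samples by any source, and same-numbered libraries did not all deviate together (correlations over genes of 0.44, 0.07 and -0.08). With a replicate block, 0 genes were called, and 29 members were lower and 4 higher at an unadjusted p under 0.05. The share over all genes was not counted for that fit. Depth does not limit the members, each with at least 204 counts in every library.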
